A study of Mus musculus with 30 samples.

Results

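Activated B cells were compared with CD4 T cells that had been cultured with the same dose of interleukin-4 (IL-4). The comparison rests on 6 of the 30 arrays of the study, 3 for each cell type, chosen by their titles. The donors of the spleen cells were C57Bl/6 males, 6 to 10 weeks old, and no transgene or deletion is named. The B cells (arrays G, H and K) were cultured with anti-IgM at 10 ug/ml, which engages the B-cell antigen receptor, together with IL-4 at 10 ng/ml. The CD4 cells (arrays A, B and C) were cultured with IL-2 at 4 ng/ml, a growth factor of T cells, together with IL-4 at 10 ng/ml. Fresh B and fresh CD4 cells, 3 arrays each and without any added agent, serve as a reference, and CD8 cells cultured with the same IL-2 and IL-4 doses (3 arrays) are set beside the CD4 cells. Cell type, anti-IgM and IL-2 all differ between the cultured groups and cannot be told apart. A note of 72 hours goes with 4 of the 30 arrays, and culture times were not compared between the groups. The sources used here do not state whether the T cells received a stimulus besides the cytokines. Nothing in the labels ties the 3 arrays of a group to different animals or cultures. The p-values therefore describe the spread between arrays, part of which may be technical.

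IL-4 acts through a receptor shared by B and T lymphocytes and the transcription factor STAT6. In B cells it is known for raising the low-affinity IgE receptor CD23 and for class switching to IgE, and in CD4 cells for steering differentiation to T helper type 2 (Th2) cells, which make IL-4 and IL-13. The array was a custom design for genes that build, bind or remove glycans, with many cytokines, chemokines and their receptors. A single deposited signal per probe set, a linear intensity, was the measurement. Signals are given below as deposited, per array or as mean ± SD (n = 3), and changes are differences of log2(signal + 16), B minus CD4, with a moderated standard error (SE). A probe set passed the test at an adjusted p under 0.05 in limma.

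The array medians were 138, 189 and 172 in activated B cells and 131, 115 and 129 in CD4 cells. Pearson's r between log2 signals was 0.88 to 0.891 within the B arrays, 0.923 to 0.927 within the CD4 arrays and 0.732 to 0.796 between the cell types. The 3'/5' signal ratio of the control transcripts was 0.852 to 1.02 on the B arrays and 0.859 to 0.945 on the CD4 arrays. Of 19 B-cell markers 4 were measured, and their summed signal was 8703 to 14946 on activated B arrays and 589 to 892 on cultured CD4 arrays. Of 21 T-cell markers 2 were measured, Cd2 and Cd40lg, summing to 935 to 1145 in B cells and 6779 to 10280 in CD4 cells. The 2 went opposite ways. Cd2 was lower in B cells and passed, while Cd40lg leaned higher in B cells without passing (1.34; limma adjusted p = 0.145). The T-cell label therefore rests on Cd2 alone, which mouse B cells also carry. In bulk samples, fewer cells of a type and less RNA per cell cannot be told apart. The 3 measured of 16 myeloid markers, Siglece, Siglec1 and Cd33, summed to 235 to 396 against 108 to 140. The only measured NK-cell marker, Klrd1, had 121 to 319 against 287 to 314. The 7 measured of 14 platelet and endothelial markers summed to 2632 to 2889 against 2014 to 2424, and the part of other cells in the results was not tested. B array G shares its scan period with CD4 arrays A and B, while CD4 array C and B arrays H and K lie in 3 other periods, each without an array of the other group.

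Of 746 probe sets tested, 153 differed between activated B and CD4 cells (20.5%), 78 higher in B cells (10.5%) and 75 lower (10.1%). They stand for 50 named genes that were higher in B cells and 40 that were lower, of 375 named genes measured, and for 49 probe sets without a gene name here. The counts by gene list below are to be read beside these 50 and 40 of 375. The change exceeded 2-fold in 139 of the 153 and 8-fold in 32. In 250 probe sets (33.5%) all B arrays lay above all CD4 arrays (139, 18.6%) or below them (111, 14.9%), and 142 of these are among the 153. The median change over all probe sets was 0.19, and 0.32 over the named genes. Centring each array on its median moved the first from 0.19 to -0.17, because the B arrays have the higher medians, and then 34 of 123 calls were higher (27.6%, against 51% as deposited). Directions of small changes are therefore relative to an unstated scaling. When 79 probe sets called on 2 B arrays and 1 CD4 array of the other scan periods were looked up in the shared period, 75 pointed the same way, with a median size ratio of 0.787. Each side of this lookup has a group with 1 array, so the calls take their spread from the other groups, and the lone array is assumed to vary like them. The share pointing the same way over all 746 probe sets is not given, so the 75 have no reference.

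**Figure D1:**
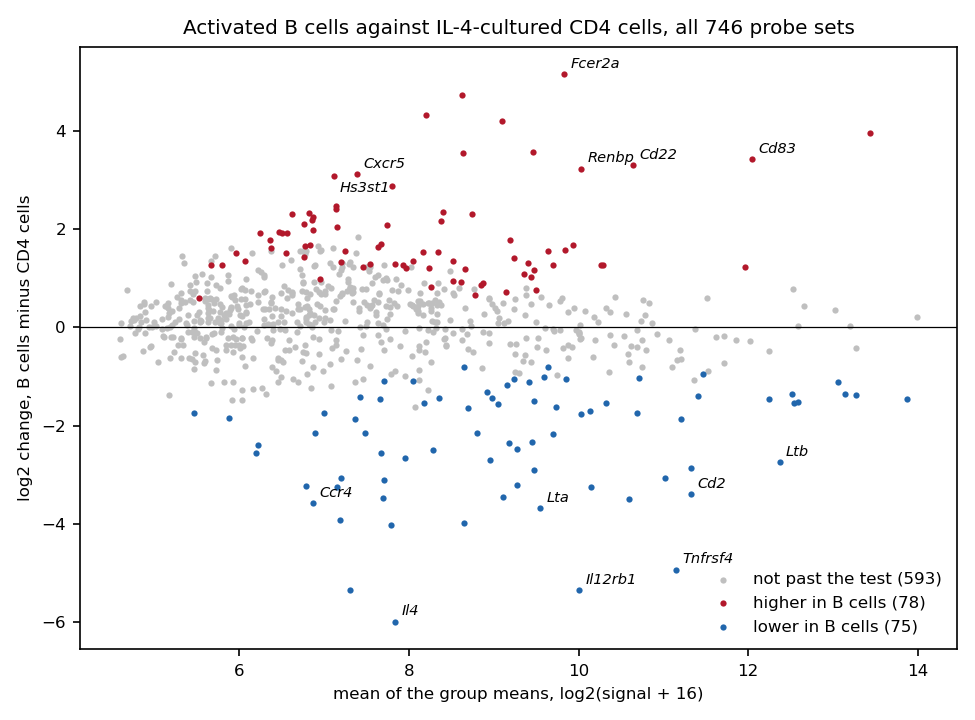
Each point is 1 of the 746 probe sets, with the mean of both group means on the log2(signal + 16) scale across and the log2 change, B minus CD4, upwards. Red points (78) passed the test as higher in B cells, blue points (75) as lower, and grey points (593) did not pass, with Fcer2a at 5.15 and Il4 at -5.99 at the ends.

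The genes at the ends of the contrast are both textbook IL-4-linked genes, 1 of each cell type. The contrast does not isolate an effect of IL-4, which both cultures received. Fcer2a was already higher in fresh B than in fresh CD4 cells, and its B-cell change in culture did not pass (values further on). Fcer2a, which encodes CD23, had signals of 5898.9, 4427.8 and 6055.7 on B arrays G, H and K and of 161.6, 98.5 and 158.1 on CD4 arrays A, B and C. All B arrays lay far above all CD4 arrays, by 5.15 ± 0.42 on the log2 scale, or 35.6-fold in signal + 16 (limma adjusted p = 2.19e-09). Il4, the gene of the cytokine that both cultures received, had 2009.9, 2091.2 and 1384.9 in CD4 cells and 9.3, 16 and 12.8 in B cells. The groups lay far apart, and the change was -5.99 ± 0.44 (limma adjusted p = 5.41e-10), 63.5-fold lower in B cells in signal + 16. Since the B signals are no higher than the added 16, the size depends on it, and the change was -7.07 with 1 added and -4.60 with 64. A further probe set of each gene gave 4.72 for Fcer2a and -5.34 for Il4.

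The 250 bases before each RefSeq transcript start (GRCm38.p6) were searched for a single motif. It is TTC followed after 4 bases of any kind by GAA, the spacing of the palindrome that STAT6 is known to bind. This motif reads the same on both strands and has no overlap with another motif searched. It is present in 1923 of 32851 such windows (5.85%), and in at least 1 window of 6.76% of all genes. Of the 15 genes most higher in B cells 12 have a window and 1 of them holds the motif, Fcer2a. Of the 15 most lower genes 12 have a window and 2 hold it, Il4 and Lta. Most of the end genes with a window thus lack the motif. The windows of Fcer2a (1 of its 3 starts) and Il4 (1 of its 2 starts) that hold it are printed 5′ to 3′ on the minus strand, with the match in capitals. The match begins 168 bases before the start in Fcer2a and 167 bases before it in Il4. A match describes the sequence only, and the other windows of these genes lack these letters.
Fcer2a, chr8:3690862-3691111: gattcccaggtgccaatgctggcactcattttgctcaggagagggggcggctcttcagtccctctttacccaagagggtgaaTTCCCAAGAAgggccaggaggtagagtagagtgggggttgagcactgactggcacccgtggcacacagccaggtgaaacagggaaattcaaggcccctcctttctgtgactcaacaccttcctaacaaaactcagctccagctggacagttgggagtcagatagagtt
Il4, chr11:53618666-53618915: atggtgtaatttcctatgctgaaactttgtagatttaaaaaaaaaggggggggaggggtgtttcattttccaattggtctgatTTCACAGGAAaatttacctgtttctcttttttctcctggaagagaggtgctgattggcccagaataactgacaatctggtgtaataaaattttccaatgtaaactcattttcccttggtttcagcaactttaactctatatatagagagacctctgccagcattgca

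All 4 measured B-cell surface genes were higher in activated B cells, with a median change of 3.21. Cd22, a sialic acid-binding inhibitory receptor of B cells (a Siglec), had 4316.7, 3623.3 and 8043.7 in B cells and 555.2, 447.1 and 485.9 in CD4 cells. The groups stood clearly apart, by 3.30 ± 0.32 (limma adjusted p = 1.88e-08), and a further probe set gave 3.55. Cxcr5, the receptor that guides B cells into follicles, was 558.5, 350.1 and 559.1 against 113.9, 30.5 and 14.3, a change of 3.12 ± 0.54. Cd72, a C-type lectin and inhibitory co-receptor of B cells, changed by 2.32 ± 0.52, from 38.3 ± 24.4 in CD4 cells to 246 ± 84.0 in B cells. The other Siglec genes Siglece (1.61), Siglec1 (0.93) and Cd33 (0.29) did not pass the test. Fresh CD4 cells had more signal of B-cell markers than cultured ones, 1142 ± 213 against 496 ± 54.8 for Cd22 and 1096 ± 308 against 139 ± 35.5 for Fcer2a.

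Among activation markers the direction split by gene. Cd83, a surface protein of activated B cells and dendritic cells, reached 15874.3, 11350 and 14813.3 in B cells against 1639.2, 1729 and 741.6 in CD4 cells, a change of 3.42 ± 0.28 (limma adjusted p = 2.29e-09). It stood clear of every CD4 array. Cd70, the ligand of the costimulatory receptor CD27, passed at 2.31 ± 0.53, but its B arrays read 391.6, 549.9 and 28.9 against 22.7, 34.9 and 27.1, so that array K lay inside the CD4 range. Tnfrsf4 and Tnfrsf8, which encode the costimulatory receptors OX40 and CD30, were lower in B cells and belong with the TNF family described further on.

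**Figure D2:**
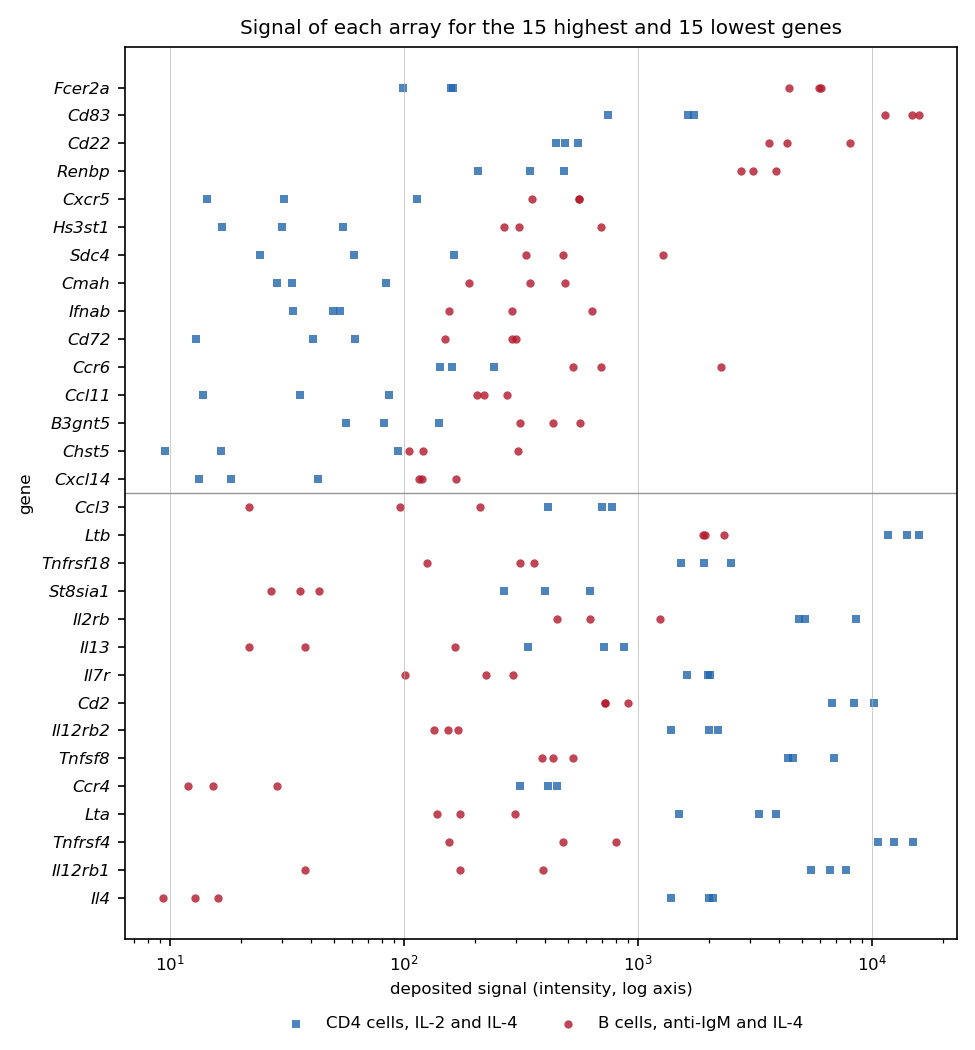
Deposited signal on a log axis of each B array (red circles) and CD4 array (blue squares) for the 15 genes most higher in B cells (top) and the 15 most lower (bottom), as chosen by the naming rule. In each of these 30 genes the 3 B arrays and the 3 CD4 arrays do not overlap, which the rule required, with the widest gaps in Fcer2a and Il4 and the narrowest in Chst5.

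The Th2-associated genes were lower in activated B cells wherever they passed the test, 5 of 8 measured and none higher, with a median change of -1.92. Besides Il4 these were the cytokine gene Il13, with 869.7, 717 and 339.3 in CD4 cells and 21.6, 165 and 37.7 in B cells (-3.10 ± 0.80; limma adjusted p = 0.00551), and Il10 (-1.50 ± 0.36). The chemokine receptors of Th2 cells moved the same way. Ccr4 had 311.4, 409.8 and 448.9 in CD4 cells and 11.9, 28.6 and 15.2 in B cells (-3.57 ± 0.41; limma adjusted p = 3.14e-07). Ccr8 had 1569 ± 256 against 321 ± 150 (-2.33 ± 0.48). B-cell signals of Il4 and Ccr4 lay far under the tested median of 120.4, while Il10 and Ccr8 kept means of 417 and 321 there. In CD4 cells cultured with IL-2 alone Il4 averaged 228 and Ccr4 78.4, and with IL-12 129 and 20.5, beside 1829 and 390 in the IL-4 culture.

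Genes linked to T helper type 1 cells and cytotoxicity were also lower in B cells, 8 of 11 measured and none higher, with a median of -1.87. Il12rb1, which encodes the ligand-binding chain shared by the IL-12 and IL-23 receptors, had 5474.8, 6582 and 7754.9 in CD4 cells and 392.6, 173.6 and 37.5 in B cells, a change of -5.35 ± 0.51 (limma adjusted p = 1.29e-08). Its B arrays spread over a wide range, yet each lay far below the CD4 arrays, and a further probe set gave -2.70. Il12rb2, the signalling chain of the IL-12 receptor, was 1999, 2192.2 and 1375.3 against 154, 133.7 and 170.4 (-3.45 ± 0.37). Ccl3, a chemokine gene of effector T cells, had 770.7, 411.4 and 700.8 against 21.8, 210.1 and 96.3 (-2.66 ± 0.54), with no overlap. Its neighbours by function, Ccl4 (-1.56 ± 0.40) and Ccl5 (-2.17 ± 0.52), passed as well. Within the shared scan period Ccl4 differed by only -0.77 and no longer passed, and the second probe set of Ccl5 gave -0.36.

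Ligands and receptors of the TNF family were mostly lower in B cells where they passed. Of 11 ligand genes 5 were lower and 2 higher in B cells (median -0.88), and of 8 receptor genes 3 were lower and none higher (median -0.59). Lta, the gene of lymphotoxin alpha, had 3886.6, 3278.5 and 1487.7 in CD4 cells and 137.5, 172.6 and 297.9 in B cells (-3.68 ± 0.42; limma adjusted p = 2.92e-07). Ltb, whose product anchors lymphotoxin to the membrane, had 15845.7, 14066.3 and 11652 against 2314.9, 1936.6 and 1887.1 (-2.74 ± 0.25). Ltb on the B arrays still lay far above the median signal. Tnfsf8, the ligand of CD30, was 5266 ± 1373 against 448 ± 71.9 (-3.49 ± 0.32), and its receptor gene Tnfrsf8, 176 ± 80.7 against 14.6 ± 4.15, changed the same way (-2.55 ± 0.75). OX40 and its ligand formed a like pair: Tnfrsf4 had 10584.7, 12404.3 and 14962.9 in CD4 cells and 807, 477.6 and 155.9 in B cells (-4.93 ± 0.51), and Tnfsf4 changed by -2.47 ± 0.43. Tnfrsf18, which encodes the receptor GITR of regulatory and activated T cells, changed by -2.91 ± 0.44. Tnfrsf11b, the decoy receptor osteoprotegerin, did not pass at 0.78.

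Chemokines and their receptors moved both ways. Of 27 chemokine genes 4 were higher and 3 lower in B cells, with a median of 0.17 that became -0.20 on centring. These shares are near those over all 375 named genes, of which 50 were higher and 40 lower. Ccl11, the eotaxin gene, had 219.9, 273.8 and 204.1 in B cells against 86, 13.8 and 35.9 in CD4 cells (2.19 ± 0.56). Cxcl14 changed by 1.93 ± 0.48, although its second probe set gave 0.40, and Ccl22, whose product binds CCR4, changed by 1.64 ± 0.52. Their signals were modest, 134 ± 28.8 for Cxcl14 and 342 ± 81.5 for Ccl22 in B cells, and the call of Ccl22 ended in 9 of 19 alternative analyses. Of 13 receptor genes 3 were higher and 4 lower. Beside Cxcr5, Ccr6, a receptor of B cells and some memory T cells, had 2248, 696.3 and 527.9 against 142.1, 159.3 and 242.3 (2.31 ± 0.41), and Ccr9, a receptor of gut homing, changed by 1.67 ± 0.42. B array G lay well above the other B arrays in Ccr6, and these still lay above every CD4 array.

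Among 26 cytokine receptor genes 4 were higher and 5 lower in B cells (median 0.27, and -0.10 on centring). Il12rb1 and Il12rb2 are among the 5 lower ones. Il7r, the receptor of IL-7, had 1614, 1984.8 and 2035.5 in CD4 cells against 223.2, 292.1 and 100.8 in B cells (-3.20 ± 0.36; limma adjusted p = 2.55e-07). Il2rb, a signalling chain shared by the IL-2 and IL-15 receptors, had 5180.9, 8507.9 and 4866.4 against 620.4, 1240.3 and 448.4 (-3.06 ± 0.51). The groups did not overlap in either gene. Of 17 interleukin and interferon genes 2 were higher and 3 lower, the 3 being Il4, Il10 and Il13. Csf3, the gene of granulocyte colony-stimulating factor, did not pass (1.58; adjusted p = 0.0971). Ifnab, a type I interferon gene outside that count, changed by 2.41 ± 0.56 from 45.6 ± 10.5 to 360 ± 247, but its second probe set gave 0.74 and did not pass.

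Sialic acids cap the glycans that CD22 and other Siglecs bind. Of 5 measured genes of sialic acid synthesis, transport and removal 2 were higher in B cells and none lower (median 0.77), beside 50 and 40 of all 375 named genes. Renbp, which encodes a protein that interconverts the sialic acid precursors N-acetylglucosamine and N-acetylmannosamine, had 3879.3, 3088 and 2747 in B cells and 483, 207.4 and 344.7 in CD4 cells (3.23 ± 0.31; limma adjusted p = 1.68e-08). Every B array lay several-fold above every CD4 array. Cmah, the hydroxylase that turns the sialic acid Neu5Ac into Neu5Gc, was 345.3, 485.5 and 188.2 against 28.5, 83.2 and 33.2 (2.47 ± 0.52). Neu2, a sialidase gene, and Slc35a1, which encodes the transporter of CMP-sialic acid, did not pass (0.77 and 0.19). Of 4 sialyltransferase genes St3gal6 was higher (1.54 ± 0.37; 481 ± 85.3 against 159 ± 50.7) and St8sia1 lower. St6galnac1 (0.51) and St6galnac4 (0.26) did not pass. The call of St3gal6 ended on median centring, at 1.17.

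Glycolipid genes split. St8sia1, the synthase of the ganglioside GD3, had 399.9, 268.1 and 624.9 in CD4 cells and 26.9, 43.3 and 35.7 in B cells (-3.06 ± 0.49; limma adjusted p = 4.03e-05). B4galnt1, which makes the gangliosides GM2 and GD2, followed at 4391 ± 230 against 1738 ± 623 (-1.39 ± 0.33), with -1.02 on a second probe set. B3gnt5, which starts the lacto-series glycolipids, went the other way with 566.4, 433 and 312.6 in B cells against 82.2, 141.2 and 56.2 (2.09 ± 0.51). None of these genes had overlapping groups. B4galt6, a lactosylceramide synthase gene, did not pass at 0.50, and the list of 5 had a median of -0.20.

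Among other glycan genes, of 14 carbohydrate sulfotransferase and sulfate supply genes 4 were higher and 1 lower in B cells (median 0.54), and after median centring 1 was higher and 1 lower. Hs3st1, which adds a rare 3-O-sulfate to heparan sulfate, had 696, 308.4 and 267.6 against 16.6, 54.5 and 30 (3.09 ± 0.47; limma adjusted p = 2.04e-05), a clear gap. Chst12, a chondroitin 4-O-sulfotransferase gene, was lower (-2.15 ± 0.54; 41.5 ± 12.2 against 257 ± 119). Chst5 (1.95 ± 0.67) and Chst7 (1.43 ± 0.48), which encode sulfotransferases of N-acetylglucosamine and related sugars, passed narrowly, and their calls ended in 11 and 12 of 18 alternative analyses. Sdc4, the syndecan-4 core protein that can carry heparan sulfate, changed by 2.88 ± 0.63 from 82.9 ± 72.1 to 696 ± 510, with B array K at 1279.1 well above the others. Sdc1 (0.09) and the versican gene Vcan (0.38) did not pass. Of 6 galactosyltransferase genes 1 passed, B3galt2 (1.70 ± 0.53), of 3 N-acetylglucosamine and poly-LacNAc transferase genes 1 passed, B3gnt5, and of 2 mucin-type O-glycan genes 1 passed, C1galt1, the core 1 synthase, at 0.83 ± 0.29 with overlapping groups. The calls of B3galt2 and C1galt1 ended on median centring and on quantile normalization. None of 5 fucosyltransferase and fucose supply genes, 3 N-glycan precursor and folding genes or 5 glycosaminoglycan chain genes passed in limma, and at an unadjusted p under 0.05 there were 0, 1 and 1 of them. Fut7, the fucosyltransferase of selectin ligands, was 295 ± 60.1 in CD4 cells and 182 ± 132 in B cells (-0.94 ± 0.66).

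The lysosomal enzyme genes gave 6 of 16 higher in B cells and none lower, with a median of 0.63. Hexa, a subunit of beta-hexosaminidase, had 1022.2, 973.8 and 906.3 in B cells and 331.1, 297.2 and 444.7 in CD4 cells (1.41 ± 0.30; limma adjusted p = 0.00105). Ctsa, the protective protein of lysosomal sialidase, was 6134 ± 798 against 2615 ± 328 (1.22 ± 0.30), and Galns, a sulfatase of keratan sulfate, 1044 ± 64.2 against 467 ± 111 (1.16 ± 0.24). Their B arrays all lay above their CD4 arrays. Asah1, the acid ceramidase gene, changed by 1.56 ± 0.53 and lost its call in 9 of 19 alternative analyses. After median centring 1 of the 16 passed, and after quantile normalization 7. Of 7 glycolysis and nucleotide sugar genes 3 were lower in B cells and none higher (median -0.91). Hk1, the hexokinase 1 gene, had 2180, 2349.4 and 2012.5 in CD4 cells and 810.8, 720.5 and 690.2 in B cells (-1.54 ± 0.27), with little spread in either. Aldoa, the aldolase gene, was 10508 ± 2274 against 3669 ± 678 (-1.51 ± 0.35). Gnpnat1, of UDP-N-acetylglucosamine synthesis, changed by -1.11 ± 0.31, but by only -0.10 within the shared scan period, where B array G (958.7) lay inside the CD4 range.

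Among adhesion genes most of those that passed were lower in B cells. Cd2, an adhesion receptor of T cells that mouse B cells also carry, had 6725.4, 8393.9 and 10194.3 in CD4 cells and 722.7, 718.6 and 903.5 in B cells (-3.39 ± 0.35; limma adjusted p = 6.16e-08). Of 12 integrin chains 2 were lower and none higher, Itgb7 (-1.70 ± 0.31; 628 ± 218 against 2017 ± 337) and Itgb2 (-1.45 ± 0.35; 2964 ± 487 against 8082 ± 1139). Over all 375 named genes 40 were lower and 50 higher. Itgb7 pairs with alpha chains of gut homing and Itgb2 forms LFA-1. Itgax (1.52), Itga4 (1.09) and Itgae (0.40) did not pass. Selplg, which encodes the selectin ligand PSGL-1, was lower (-1.35 ± 0.29), with 3671 ± 371 in B cells against 9401 ± 971 in CD4 cells. Vcam1, an adhesion molecule of activated endothelium, passed at 1.30 ± 0.43 with 296 ± 140 against 105 ± 27.9, and lost its call in 10 of 19 alternatives. Lgals7, the only galectin gene named here, was 524 ± 49.2 in CD4 cells and 185 ± 22.1 in B cells (-1.43 ± 0.41).

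Of 19 growth and angiogenic factor genes 2 were higher and 1 lower in B cells (median 0.52), and after median centring none was higher and 1 lower. Pdgfa, a platelet-derived growth factor gene, was higher at 1.51 ± 0.36 with B arrays of 247, 73.4 and 33.8 against CD4 arrays of 23.6, 18.9 and 20.4. Vegfa, the vascular endothelial growth factor gene, was lower at -1.75 ± 0.46. Igf2 (1.55) and Angpt1 (1.37) did not pass. Of 18 TGF-beta and activin family genes Tgfbr2 (2.04 ± 0.65) was higher and Bmp7 (-1.85 ± 0.51) lower. The call of Tgfbr2 ended in 8 of 19 alternative analyses, and after median centring none of the 18 was higher and 2 were lower. Bmp7 had signals under the tested median in both cell types. Beside these lists, 90 of all 375 named genes passed, with a median of 0.32.

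**Figure D3:**
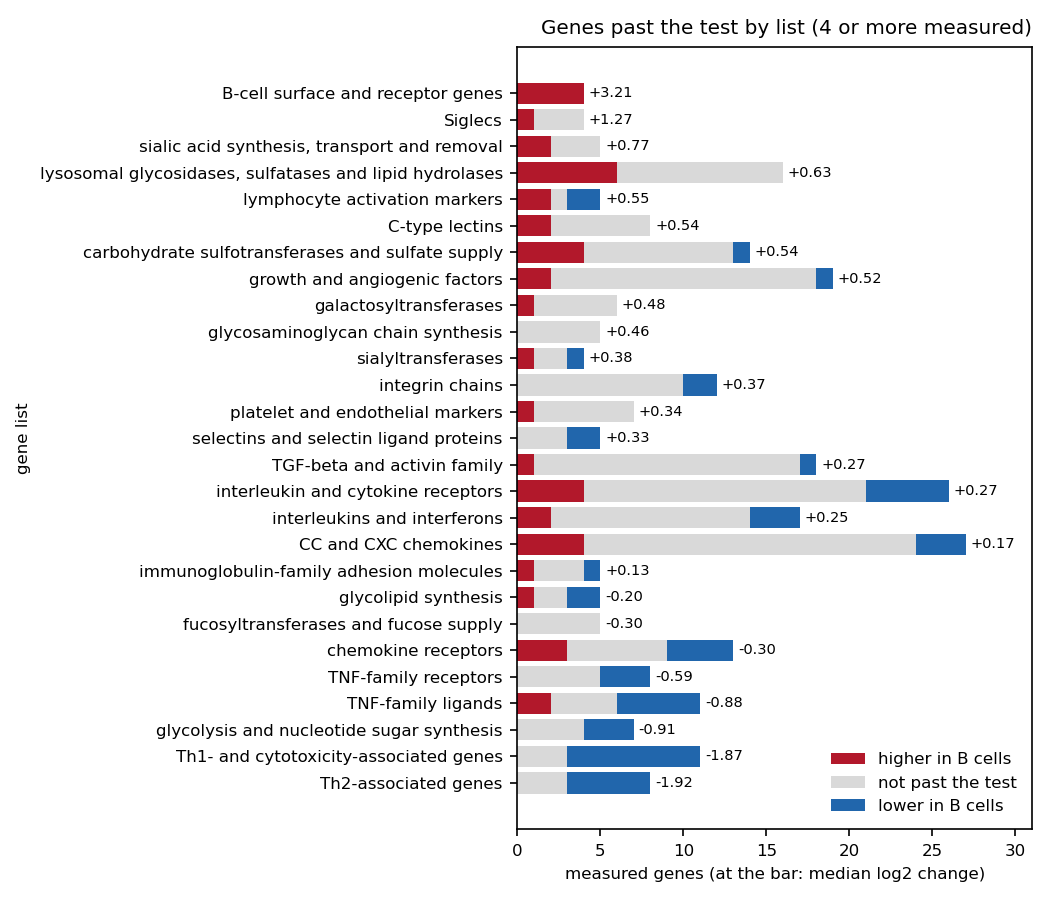
Bars give the measured genes of each list with at least 4, split into those higher in B cells (red), not past the test (grey) and lower in B cells (blue), and the number at each bar is the list's median log2 change. The lists run from B-cell surface genes (3.21) to Th2-associated genes (-1.92), and most lists in between have more grey than coloured length.

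Fresh cells serve as a reference for these gaps without culture. The sums of the T-cell markers overlapped there, at 1801 to 3166 on fresh B and 2244 to 7485 on fresh CD4 arrays. Those of the B-cell markers did not, at 20353 to 25171 against 2013 to 2786. The part of mixed cells in the fresh contrast, and in differences from it, was not tested. The fresh B-to-CD4 contrast held 50 calls (6.7%), of which 21 were higher in B cells (2.82%) and 29 lower (3.89%), and 30 probe sets passed in both contrasts in the same direction and 2 in opposite directions. The difference between the cultured and the fresh contrast, tested as an interaction, passed in 53 probe sets (7.1%), 25 upwards (3.35%) and 28 downwards (3.75%), and 43 of the 153 calls are among them. The median difference over all probe sets was 0.24, and -0.20 on centring, when 5 of 53 calls were upwards (9.43%, against 47.2% as deposited). Cd22 had the same gap fresh as cultured (3.30 and 3.30, a difference of 0.00 ± 0.46). Cxcr5 (0.28), Hs3st1 (0.23) and Ccr6 (0.45) had differences that did not pass. Il7r was lower in B cells both fresh (-4.73 ± 0.36) and cultured (-3.20).

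The gap in Il4 was that of the cultured cells: 42.8 ± 27.3 in fresh B and 29.9 ± 14.7 in fresh CD4 cells, a fresh change of 0.29, so that the contrast differed by -6.28 ± 0.62 (limma adjusted p = 2.68e-07). Lta differed by -4.49 ± 0.60, and here both cell types changed, B cells falling by 2.22 and CD4 cells gaining 2.27 against their fresh state. Ltb differed by -2.81 ± 0.36. Its signal was 22680 ± 1861 in fresh B and 21776 ± 2327 in fresh CD4 cells, and in culture it fell by 3.46 in B cells while the change of -0.66 in CD4 cells did not pass (adjusted p = 0.0693). Il12rb1 differed by -3.87 ± 0.72 and Il12rb2 by -3.36 ± 0.53, Tnfsf4 by -3.51 ± 0.62, Tnfrsf4 by -2.95 ± 0.72 and Ccr4 by -2.83 ± 0.59. For Tnfsf4 the fresh contrast was 1.04 and the cultured one -2.47. In Il12rb2, Tnfsf4 and Ccr4 the B cells changed by 0.04, 0.04 and 0.02 from fresh to cultured and the CD4 cells by 3.40, 3.55 and 2.85.

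Markers of other cell types had less signal in cultured than in fresh CD4 cells, with sums of 108 to 140 against 442 to 798 for the myeloid, 287 to 314 against 827 to 1267 for the NK-cell and 2014 to 2424 against 4799 to 8087 for the platelet and endothelial list. In B cells the sums were 235 to 396 against 318 to 909, 121 to 319 against 243 to 1054 and 2632 to 2889 against 5400 to 8764, and their part in the upward differences was not tested. Itgax, an integrin chain of dendritic cells and some activated B cells, had 774 ± 697 in fresh B and 1651 ± 490 in fresh CD4 cells, and fell by 5.28 in CD4 cells against 2.12 in B cells, a difference of 3.15 ± 0.86. Cultured signals were only 120 ± 86.7 and 26.9 ± 11.6. Fcer2a fell by 2.83 in CD4 cells, while the B-cell change of -0.93 did not pass, and its difference of 1.90 ± 0.59 was at the threshold (limma adjusted p = 0.0498). That call ended in 18 of 24 alternative analyses. Cd83 differed by 1.32 ± 0.40, with 3409 ± 256 in fresh B cells, and Renbp by 1.73 ± 0.44, with 718 ± 71.8 there. B cells gained 2.02 in Cd83 and 2.14 in Renbp, and the changes in CD4 cells, 0.70 and 0.41, did not pass. Cxcr6 differed by 2.16 ± 0.52, from 1098 ± 413 in fresh CD4 cells to 313 ± 49.3 cultured. The other upward differences were those of Fzd4 (3.05 ± 0.74), Cd70 (2.73 ± 0.75), Ccl22 (2.43 ± 0.74), Ccr9 (2.37 ± 0.59) and Ntrk3 (2.23 ± 0.67). Itgax, Fzd4 and Ntrk3 had cultured changes of 1.52, 1.22 and 1.34. Their second probe sets gave 0.11, -0.11 and 0.10, none past the test. The 3'/5' ratio was 6.15 on fresh CD4 array C, and without it 46 probe sets passed and the calls of Ccl22, Ntrk3, Fcer2a, Cd83 and Ccl4 ended. With the ratio as a covariate 42 passed.

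**Figure D4:**
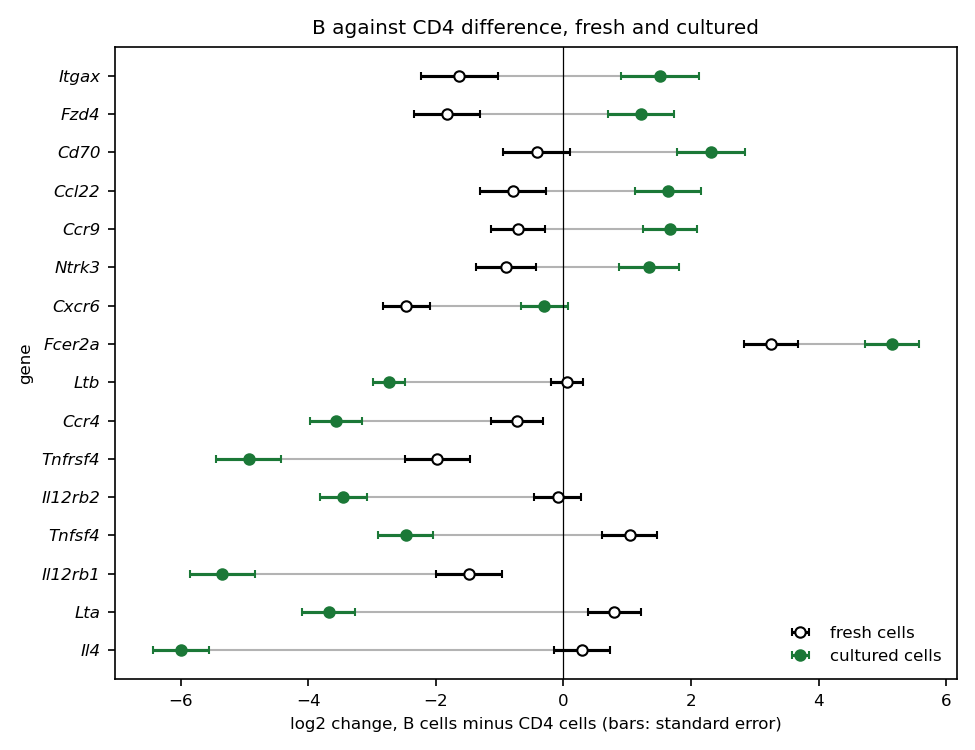
For the 16 genes with the largest differences either way by the naming rule, open circles give the log2 change of fresh B minus fresh CD4 cells and filled circles that of the cultured cells, with standard errors. Il4 moves from 0.29 to -5.99 and Lta from 0.80 to -3.68, while Fcer2a is high in both (3.25 and 5.15).

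Against CD8 cells cultured with the same IL-2 and IL-4 doses, 160 probe sets passed (21.4%), and the activated B arrays are the same in both contrasts. The CD8 and CD4 cultures themselves differed in 29 probe sets (3.89%). Fcer2a, Cd83, Renbp and Hs3st1, which were higher in B than in CD4 cells, were also higher than in CD8 cells. Fcer2a stood 4.96 ± 0.42 above CD8 cells beside 5.15 above CD4 cells. For Cd83 the changes were 2.98 beside 3.42, for Renbp 2.72 beside 3.23 and for Hs3st1 3.69 beside 3.09. The other B-cell surface genes stood 4.22 (Cd22), 3.87 (Cxcr5) and 2.36 (Cd72) above CD8 cells. Their CD8-to-CD4 changes were -0.92, -0.75 and -0.04. For none of these genes did CD8 and CD4 cells differ past the test (limma adjusted p from 0.135 to 0.983), which does not show that they are alike. Not every gene called higher in B than in CD4 cells passed against CD8 cells. Among those that did not were B3galt2 (0.12), Asah1 (0.44), Tgfbr2 (0.62), C1galt1 (0.67), Ccr9 (0.73), Cxcl14 (0.77), Ccl22 (1.11) and Chst5 (1.42). Their limma adjusted p ran from 0.107 to 0.918. The 5 Th2-associated genes lower in B than in CD4 cells were mixed in CD8 cells, with 3 lower than in CD4 cells. Il4 was 26.6, 25.9 and 73.5 on the CD8 arrays, -5.06 ± 0.44 from CD4 cells (limma adjusted p = 1.87e-08), and B cells did not differ from CD8 cells (-0.93; adjusted p = 0.156). Ccr4 (-3.55 ± 0.41), Ccr8 (-2.27), St8sia1 (-2.54 ± 0.49) and Lgals7 (-2.37) were likewise lower in CD8 than in CD4 cells. The B-to-CD8 differences of these 4 genes did not pass, at -0.02, -0.05, -0.51 and 0.94. Il10 had 1252 ± 853 in CD8 cells, a CD8-to-CD4 change of -0.12 that did not pass (limma adjusted p = 0.938), and was lower in B than in CD8 cells (-1.38; limma adjusted p = 0.00632). For Il13 neither the CD8-to-CD4 change (-1.52; limma adjusted p = 0.436) nor the B-to-CD8 difference (-1.58; limma adjusted p = 0.192) passed. Ccl3 went the other way, 2.54 ± 0.54 higher in CD8 than in CD4 cells and 5.20 below CD8 cells in B cells. Il12rb2 was 1.45 ± 0.37 higher and Ltb 1.13 lower in CD8 cells than in CD4 cells. The experiment file of the CD8 array with letter C carries another letter, and without that array the CD8-to-CD4 change was -5.43 for Il4, -3.56 for Ccr4, -2.73 for St8sia1 and 2.41 for Ccl3, all past the test.

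**Figure D5:**
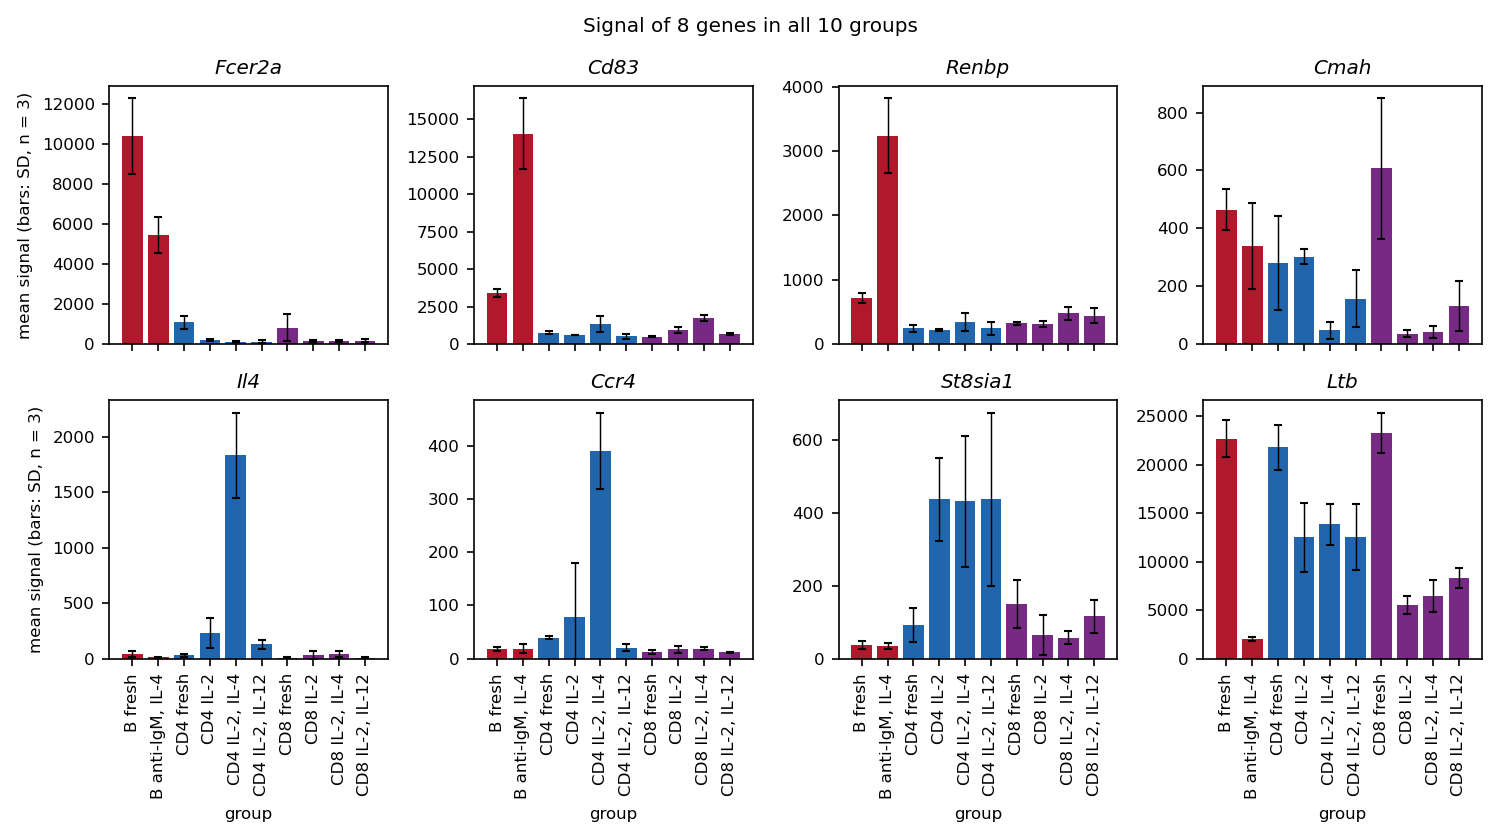
Mean deposited signal with SD (n = 3) of 8 genes in all 10 groups, B cells in red, CD4 cells in blue and CD8 cells in purple, each panel on its own linear axis from 0. Cd83 and Renbp are highest in activated B cells (14013 and 3238), Il4 and Ccr4 in CD4 cells with IL-2 and IL-4 (1829 and 390), and Ltb is lowest in activated B cells (2046).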

How the data were processed

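Mouse spleen lymphocytes were measured on a custom glycan-gene array of 752 probe sets, 30 arrays in 10 groups of 3. The values are a linear intensity per probe set, as deposited by the authors in the series value table. Sources used here do not name the summarisation program or any scaling. The 6 control probe sets were left out, which leaves 746. RefSeq (GRCm38.p6) named 450 probe sets for 375 genes, and 296 stayed unnamed. Where a gene had several probe sets, the one brightest on average across the 30 arrays stood for it. Intensities became log2(signal + 16), and limma 3.58.1 in R 4.3.3 (lmFit, eBayes; 20 residual degrees of freedom) fitted all 30 arrays, with two-sided tests, Benjamini-Hochberg adjustment over 746 and a threshold of 0.05. The members, gene lists and tests were chosen with earlier results of these data known. Named are the 15 highest and 15 lowest genes past the threshold without overlap of the groups and above the tested median signal of 120.4, the 8 highest and 8 lowest differences from the fresh contrast, up to 4 members with the largest change of each of 38 lists, and a set list of genes, of which 1 is not reported here. In simulated data of the main comparison with 746 probe sets, changes of 1 and of 2 (log2) were each put into 100 probe sets. Of these, 37% of changes of 1 and 77% of changes of 2 were recovered, with 5.79% false among calls. The simulated noise was independent between arrays and held no scan or scaling effect, so 5.79% is not the false share of the real calls. Only 3 arrays a group limit the precision. Alternatives changed the pseudocount (1, 64), normalization, filter, arrays, blocks and 3'/5' ratio as a covariate. The array lot block, the shared scan period alone and the contrast without CD8 letter C were chosen after seeing the data. Experiment files swap letters for CD4 arrays A and B and give other letters for 2 CD8 arrays, and titles were kept. Figures used matplotlib 3.10.9.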

Additional observations from a re-analysis of the deposited data

Results flagged for a closer look

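For 16 genes the gap between B and CD4 cells differed between culture and the fresh state by the limma interaction test. The difference was downward, B relative to CD4, for Il4 (-6.28), Lta (-4.49), Il12rb1 (-3.87), Tnfsf4 (-3.51), Il12rb2 (-3.36), Tnfrsf4 (-2.95), Ccr4 (-2.83) and Ltb (-2.81). It was upward for Itgax (3.15), Fzd4 (3.05), Cd70 (2.73), Ccl22 (2.43), Ccr9 (2.37), Ntrk3 (2.23), Cxcr6 (2.16) and Fcer2a (1.90). Second probe sets of Itgax, Fzd4 and Ntrk3 showed no cultured gap past the test, with changes of 0.11, -0.11 and 0.10. The calls of Il4, Lta, Il12rb1 and Ltb ended in none of the alternatives run for them, and those of Fcer2a, Ccl22 and Ntrk3 ended in 18, 17 and 16 of 24. Fzd4 was 299.1, 136.1 and 358.3 on fresh CD4 arrays and 30.4, 29.5 and 172.7 on fresh B arrays, and its cultured change of 1.22 did not pass. No outlier test was run on the groups of 3 arrays, although the alternatives left out single arrays in turn.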

How the results depend on the processing

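Of the 153 calls, 45 remained among 47 with scan day as a block, where 1 turned sign, and 68 among 72 in the shared scan period alone (1 B and 2 CD4 arrays), where 1 turned sign. The 53 calls of the difference from fresh cells became 18 with only the arrays of the groups compared and 11 with scan day as a block. Leaving out 1 array gave 119 (without CD4 B or B H) to 157 calls (without B G), and 40 (without CD4 B) to 65 (without fresh CD4 A) for the difference. Median centring gave 123 calls, 27.6% of them higher in B cells (51% as reported), and 53 for the difference, 9.43% upward (47.2% as reported). Scan period as a block gave 121 and 60 calls, array lot 133 and 52, and quantile normalization 136 and 64. With title letters as a replicate block the counts were 151 and 67, and the groups of the main contrast share no letters. Deviations of same-letter fresh and cultured arrays correlated at -0.111, 0.0394 and 0.0306 in CD4 cells and at 0.163 and 0.172 in B cells, so letters were not taken as pairs. Of 63 named genes called, 18 kept the call in every alternative run for them, 42 lost it with scan day as a block and 13 on median centring, and none was called in the opposite direction. The cause of these changes was not tested. Signals near the lower end, such as those of Il4 and Ccr4 in B cells, depend on the pseudocount in size.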
